A study of Mus musculus with 5 samples.

Results

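The expression of 10 genes of retinal stress and reactive gliosis was followed in form-deprived (FDM) and uncovered control eyes of mice: Gfap, Lcn2, Edn2, Stat3, Cp, Serpina3n, Lif, Cebpd, Osmr and Socs3. The genes were taken by their symbols from the table of estimated counts. All 10 were found, each in 1 row among the 33635 gene identifiers, and all 10 were among the 17432 genes tested, which had over 10 counts in 2 or more libraries. The retinas came from male wild-type C57BL/6J mice, a common inbred strain, which carried a diffuser goggle, fixed to the head, in front of the right eye from postnatal day 28 (P28) on and were examined at P42. The files held 2 FDM libraries and 3 control libraries from the left eyes, each from the retina of a single eye. FDM 1 and Control 1 were eyes of mouse 1, FDM 3 and Control 3 were eyes of mouse 3, and Control 2 had no partner because the authors had left out the library of the other eye of mouse 2 for its read duplication. The sample labels number the second FDM library 2, whereas the count table and the study's sequencing table number it 3, which is used here. Refractive errors at P42 were 0.976 and 0.2745 diopters in the FDM eyes and from 2.4455 to 3.1505 in the control eyes. The goggle was always on the right, so that the side of the eye and the treatment cannot be told apart, and the control eyes belonged to mice that carried a goggle too.

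Reactive gliosis is the response of Müller cells and astrocytes, the macroglia of the retina, to injury. In a well-studied signaling chain, stressed photoreceptors release endothelin 2 (Edn2) and Müller cells release leukemia inhibitory factor (Lif). Receptors built on gp130 then activate Janus kinases and the transcription factor STAT3 in glia and photoreceptors. STAT3 raises its own inhibitor Socs3 and, with the transcription factor C/EBP-delta (Cebpd), genes of the reactive state such as the intermediate filament gene Gfap, the iron-binding lipocalin Lcn2, the copper ferroxidase ceruloplasmin (Cp) and the protease inhibitor Serpina3n. Gfap is normally read from astrocytes at the inner surface of the retina and spreads through Müller cells after damage.

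The promoter windows of 9 members were read from RefSeq for the build GRCm38.p6, from 250 bases before to 50 bases after the annotated start. Cebpd had no entry. For Gfap, Lcn2, Osmr and Socs3, these RefSeq windows do not reach the start of the gene positions given below, which was not searched. They are shown for Gfap and Socs3, which are the members whose windows held the STAT half-site pair TTCNNNGAA, and for Edn2, which like Gfap was highest in Control 1 and lowest in Control 2 and Control 3. Capitals mark the TTCNNNGAA match, and sequences run 5′ to 3′ along the gene.
Gfap, chr11:102897151-102897450, minus strand: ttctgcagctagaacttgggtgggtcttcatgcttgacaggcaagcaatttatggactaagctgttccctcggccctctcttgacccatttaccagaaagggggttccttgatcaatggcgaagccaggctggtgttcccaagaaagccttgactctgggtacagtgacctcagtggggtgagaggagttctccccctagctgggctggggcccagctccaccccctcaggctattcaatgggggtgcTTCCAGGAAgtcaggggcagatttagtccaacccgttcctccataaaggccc
Edn2, chr4:120160956-120161255, plus strand: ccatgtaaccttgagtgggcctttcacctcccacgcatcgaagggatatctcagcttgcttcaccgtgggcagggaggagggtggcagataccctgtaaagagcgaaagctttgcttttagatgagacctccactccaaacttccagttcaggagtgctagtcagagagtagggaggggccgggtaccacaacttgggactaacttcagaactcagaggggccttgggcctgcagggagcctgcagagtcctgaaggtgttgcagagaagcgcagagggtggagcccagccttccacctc
Socs3, chr11:117969317-117969616, minus strand: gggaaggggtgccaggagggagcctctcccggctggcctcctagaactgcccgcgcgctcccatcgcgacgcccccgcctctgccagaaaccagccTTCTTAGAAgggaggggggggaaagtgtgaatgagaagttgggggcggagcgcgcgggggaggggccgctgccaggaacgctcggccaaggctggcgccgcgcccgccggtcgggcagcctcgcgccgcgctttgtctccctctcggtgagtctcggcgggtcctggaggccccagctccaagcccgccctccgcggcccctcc
The match in Gfap read TTCCAGGAA, and that in Socs3 read TTCTTAGAA. The letters TTCNNNGAA, which are the same on both strands, occurred in 8.30% of the 32851 RefSeq windows of this length. A C/EBP-type sequence, TTGCNNAA on either strand, lay in the windows of Lcn2 and Cp and in 10.8% of all windows. Cp had more than 1 window, so that the 9 members had 10 windows. Its match lay in the window beginning at 19956999 and not in that beginning at 19956804. A match is a description of the letters and no measure of binding.

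In library terms, 3 counts stood for 0.0526 to 0.0751 counts in 1000000 (CPM), and totals ran from 40599047 to 56534931 estimated counts. CPM are scaled here to library totals corrected by TMM, which allows for differences in RNA composition. Müller cell markers were at high levels, with Glul, the glutamine synthetase of Müller cells, between 2391 and 2581 CPM. RNA of neighboring tissues differed between libraries. The 12 markers of the retinal pigment epithelium (RPE) summed to 83.0 CPM in FDM 1, 72.6 in FDM 3 and 87.6 in Control 1, against 294 in Control 2 and 285 in Control 3. The 9 lens markers found summed to 1963 CPM in FDM 3 and to between 2.48 and 18.0 CPM in the others, and the 6 muscle markers to 59.5 CPM in Control 3 and to between 9.24 and 10.7 CPM elsewhere. No marker in these lists was at 0 in every library.

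After 2 weeks of form deprivation, no change of these genes between the groups was detected in the unpaired fits of all 5 libraries. In the edgeR quasi-likelihood fit over all genes tested, 0 of the 10 members had an unadjusted p under 0.05, the threshold of the study, where 1.61% of all genes tested did. After Benjamini-Hochberg adjustment 0 members passed, and the background was 0.0% of the genes. At such shares, 0 of 10 does not set these members apart from other genes. With the mouse as a block, Serpina3n and Cebpd were under the unadjusted threshold, where that fit called 7.23% of all genes tested. DESeq2's Wald test called 0 members, with 0.987% of the genes tested under the unadjusted threshold and 0.0172% under the adjusted one. The members' fold changes had a median of -0.07 on the log2 scale, and all genes tested had a median of -0.01. Of the 10, 3 were above 0 and 7 below 0. For 8 members the 95% interval of the change stayed within 2-fold in either direction, the exceptions being Serpina3n and Lif, and for 5 members it stayed within 1.5-fold. For every member the difference between the groups was smaller than the range of the 3 control libraries, as it was for 92.6% of the genes tested.

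**Figure D1:**
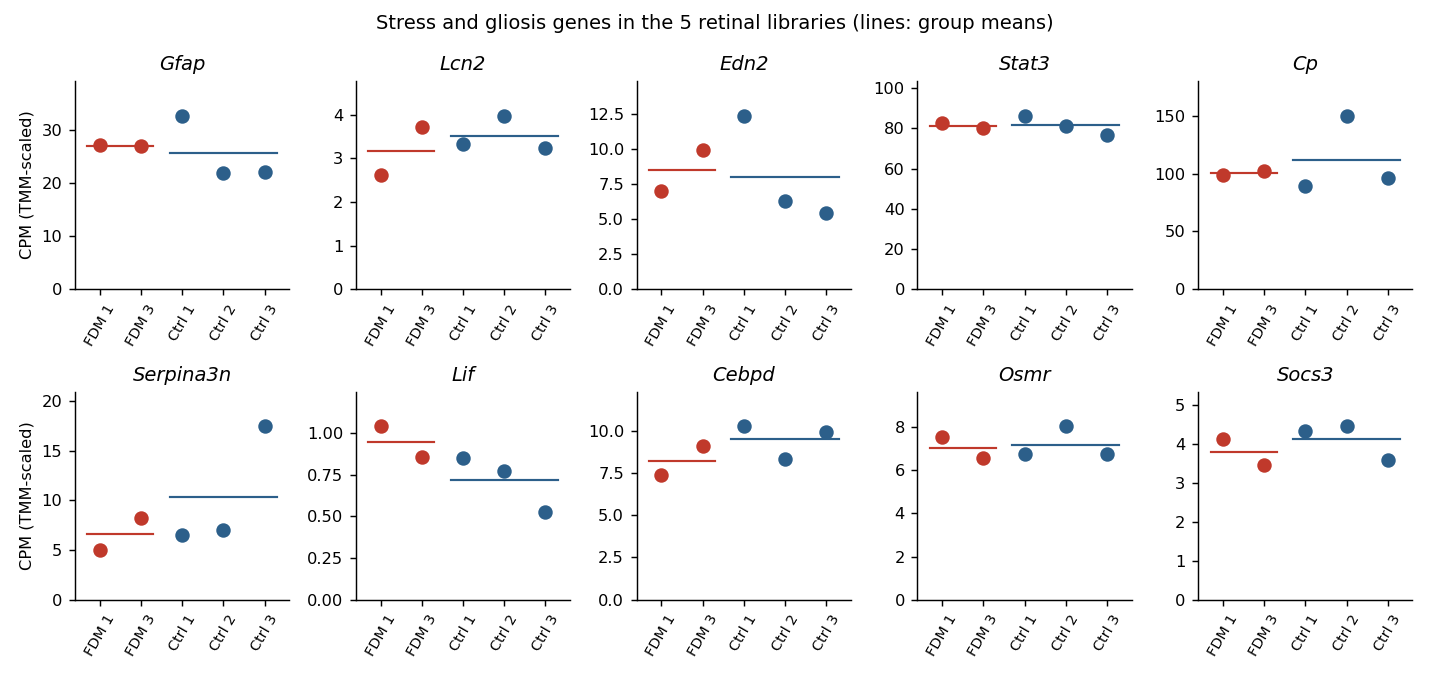
Level of each of the 10 genes in CPM (linear axes from 0) in the 2 FDM libraries (red) and the 3 control libraries (blue, Ctrl). Points are single libraries and lines are group means. FDM and control points overlap for every gene except Lif, where the lower FDM library stands at 0.852 CPM and the highest control also at 0.852 CPM.

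Per kilobase of exon, the scale on which genes can be compared with each other, Cp stood highest with a mean of 11.2 CPM per kb over the 5 libraries. Stat3 followed at 8.55, Gfap at 6.19, Edn2 at 5.61, Serpina3n at 4.28, Cebpd at 2.40, Socs3 at 1.38, Lcn2 at 1.29, Osmr at 0.588 and Lif at 0.186 CPM per kb. The libraries of Gfap and Edn2 overlapped in level, as did those of Edn2 and Serpina3n, of Serpina3n and Cebpd, and of Socs3 and Lcn2. The other neighbors in this order did not overlap. For comparison, the filament gene Vim, which Müller cells express throughout life, had a mean of 25.4 CPM per kb, and Glul had 744 CPM per kb.

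Among the signals, Edn2 (ENSMUSG00000028635) is at 120161206 to 120167360 of chromosome 4 (GRCm38, as all positions here). Edn2 had 302 estimated counts in the FDM eye and 494 in the control eye of mouse 1, 479 and 259 in those of mouse 3, and 357 in Control 2. Control 1 was thus the highest library and Control 3 the lowest, with both FDM eyes between them. The FDM eyes averaged 8.46 ± 2.12 CPM (SD, n = 2) and the controls 8.03 ± 3.78 CPM (SD, n = 3). Edn2 had a log2 fold change, FDM over control, of 0.08 (SE 0.35, edgeR unadjusted p = 0.817, adjusted p = 1.0), with a 95% interval from 0.601-fold to 1.87-fold. Without Control 1 it was 0.53 (edgeR unadjusted p = 0.0254, adjusted p = 0.829), in a fit that called 5.45% of the genes tested. That fit set the FDM libraries, low in RPE markers, against Control 2 and Control 3, the libraries high in them. The part of RPE RNA was not tested.

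Lif (ENSMUSG00000034394), the cytokine ligand, lies on chromosome 11 from 4257557 to 4272514 and was the member with the fewest reads. It had 45 counts in the FDM eye and 34 in the control eye of mouse 1, 41 and 25 in those of mouse 3, and 44 in Control 2. In CPM the FDM eyes stood at 0.945 ± 0.131 (SD, n = 2) and the control eyes at 0.717 ± 0.169 (SD, n = 3). Lif was the only member of the 10 in which both FDM libraries lay beyond every control, with FDM 3 above Control 1 by less than the counting error. Both FDM libraries lay above every control for 3.97% of the genes tested and below every control for 6.67%, so that the groups did not overlap for 10.6%. Lif had a log2 fold change of 0.40 (SE 0.27, edgeR unadjusted p = 0.187, adjusted p = 1.0).

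The sign of the Lif difference depended on the normalization. In the counts that the authors normalized, Lif had 41.7 in the FDM eye and 39.4 in the control eye of mouse 1, 26.8 and 27.6 in those of mouse 3, and 56.7 in Control 2. Control 2 was highest on this scale, FDM 3 was the lowest library, and the groups overlapped. The authors' normalization divided each gene and library by a factor of its own. Relative to the median of its library, the factor of Lif was 1.17 in FDM 1 and 1.495 in FDM 3, the highest, and among the controls 0.637 in Control 2, the lowest, 0.895 in Control 3 and near 1 in Control 1. The highest of these was 2.35 times the lowest, a spread reached by 0.710% of 17321 genes. With these factors as offsets in edgeR, the log2 fold change of Lif was -0.27 (unadjusted p = 0.477, adjusted p = 1.0). Cp had the second widest factors among the members, with the highest 1.22 times the lowest, and Gfap, Lcn2, Edn2, Serpina3n and Cebpd stayed within 1.05 times.

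**Figure D2:**
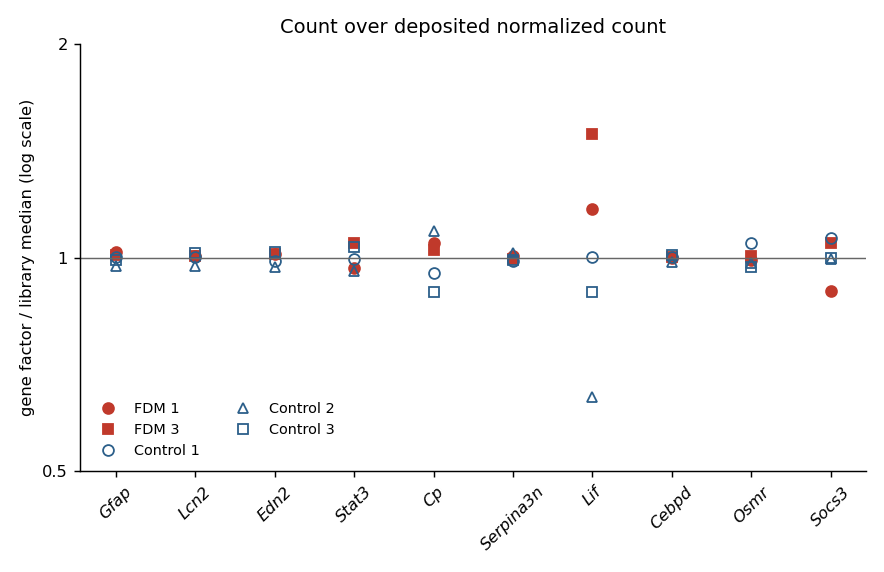
Deposited count divided by deposited normalized count for each gene and library, relative to the library's median over the genes tested (log2-spaced axis). Red filled symbols are FDM libraries and blue open symbols control libraries. The points of Lif run from 0.637 in Control 2 to 1.495 in FDM 3, while those of Serpina3n lie between 0.991 and 1.02.

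The receptor gene Osmr (ENSMUSG00000022146, chromosome 15, 6813577 to 6874969) encodes the oncostatin M receptor subunit that pairs with gp130. It had 327 counts in the FDM eye and 269 in the control eye of mouse 1, 315 and 321 in those of mouse 3, and 458 in Control 2. The libraries lay close together, from 6.55 CPM in FDM 3 to 8.03 CPM in Control 2, and the groups overlapped. Its log2 fold change was -0.03 (SE 0.14, edgeR unadjusted p = 0.839, adjusted p = 1.0), with an interval from 0.786-fold to 1.22-fold.

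Stat3 (ENSMUSG00000004040, chromosome 11, 100885098 to 100939540) was the member whose level varied least. It had 3579 counts in the FDM eye and 3448 in the control eye of mouse 1, 3854 and 3656 in those of mouse 3, and 4644 in Control 2. The FDM eyes averaged 81.3 ± 1.72 CPM (SD, n = 2) and the controls 81.6 ± 4.69 CPM (SD, n = 3), and the FDM libraries fell inside the range of the controls. Stat3 had a log2 fold change of -0.0044 (SE 0.09, edgeR unadjusted p = 0.960, adjusted p = 1.0), and its interval ran from 0.866-fold to 1.15-fold. The RNA level does not show how much of the STAT3 protein was phosphorylated.

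Socs3 (ENSMUSG00000053113, chromosome 11, 117966079 to 117970047), the feedback inhibitor induced by STAT3, had 179 counts in the FDM eye and 173 in the control eye of mouse 1, 167 and 170 in those of mouse 3, and 254 in Control 2. Its libraries ran from 3.47 CPM in FDM 3 to 4.46 CPM in Control 2 with the groups interleaved. Socs3 had a log2 fold change of -0.12 (SE 0.16, edgeR unadjusted p = 0.490, adjusted p = 1.0).

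Cebpd (ENSMUSG00000071637, chromosome 16, 15887286 to 15891031) had 320 counts in the FDM eye and 409 in the control eye of mouse 1, 436 and 472 in those of mouse 3, and 474 in Control 2. FDM 1 was the lowest library at 7.38 CPM, and FDM 3, at 9.07 CPM, lay above Control 2. Cebpd had a log2 fold change of -0.21 (SE 0.15, edgeR unadjusted p = 0.199, adjusted p = 1.0). When the mouse was entered as a block, it was -0.30 (edgeR unadjusted p = 0.0272, adjusted p = 0.647). The blocked fit called 7.23% of all genes tested at the unadjusted threshold, 3.57% as higher and 3.67% as lower, and 0.31% after adjustment, and it left 1 residual degree of freedom. Blocked by the label numbers, which pair FDM 3 with Control 2, Cebpd was at -0.17 (edgeR unadjusted p = 0.314, adjusted p = 1.0).

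Of the genes read as markers of reactive glia, Gfap (ENSMUSG00000020932, chromosome 11, 102887336 to 102900912) had 1172 counts in the FDM eye and 1302 in the control eye of mouse 1, 1293 and 1049 in those of mouse 3, and 1249 in Control 2. The FDM eyes stood at 27.0 ± 0.107 CPM (SD, n = 2) and the control eyes at 25.5 ± 6.13 CPM (SD, n = 3). Control 1, at 32.6 CPM, was the highest library, and Control 2 and Control 3, at 21.9 and 22.1 CPM, were the lowest, with both FDM eyes between. Between the groups Gfap had a log2 fold change of 0.08 (SE 0.18, edgeR unadjusted p = 0.660, adjusted p = 1.0), and its 95% interval ran from 0.794-fold to 1.41-fold. When Control 1 was left out, it was 0.29 (edgeR unadjusted p = 0.0114, adjusted p = 0.700). Without Control 1, 2.24% of the genes tested were called as higher in FDM eyes, and Gfap and Edn2 were the 2 members called. The controls left in that fit, Control 2 and Control 3, were the libraries high in RPE markers, while both FDM libraries were low in them. The part of RPE RNA was not tested.

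Serpina3n (ENSMUSG00000021091, chromosome 12, 104406729 to 104414329) had the widest spread of the members. It had 217 counts in the FDM eye and 259 in the control eye of mouse 1, 395 and 829 in those of mouse 3, and 401 in Control 2. Control 3, at 17.5 CPM, stood apart, and the other 4 libraries lay between 5.01 and 8.21 CPM. The log2 fold change was -0.64 (SE 0.45, edgeR unadjusted p = 0.196, adjusted p = 1.0), and it was -0.03 without Control 3. With the mouse as a block Serpina3n had a log2 fold change of -0.78 (edgeR unadjusted p = 7.81e-04, adjusted p = 0.164). This value rests on the pairing of FDM 3 with Control 3, since the block by label numbers gave -0.064 (edgeR unadjusted p = 0.712, adjusted p = 1.0). Control 3 was also the library with the most muscle RNA and was high in RPE markers, with 285 CPM against 72.6 in FDM 3. FDM 3 was the library with the most lens RNA. The part of these tissues in the Serpina3n value was not tested. Serpina3n belongs to a cluster of similar genes between which reads can be split. The other 10 cluster genes listed summed to between 0.579 and 0.758 CPM per library, and the only one tested, Serpina3g, had a log2 fold change of -0.12 (edgeR unadjusted p = 0.690, adjusted p = 1.0).

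Lcn2 (ENSMUSG00000026822, chromosome 2, 32384633 to 32388252), a strongly induced gene of reactive astrocytes in injury models, had 114 counts in the FDM eye and 133 in the control eye of mouse 1, 179 and 154 in those of mouse 3, and 227 in Control 2. FDM 1 was the lowest library at 2.63 CPM, and FDM 3, at 3.72 CPM, lay below Control 2 alone. Lcn2 had a log2 fold change of -0.15 (SE 0.20, edgeR unadjusted p = 0.476, adjusted p = 1.0), with an interval from 0.655-fold to 1.24-fold.

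Cp (ENSMUSG00000003617, chromosome 3, 19957054 to 20009145) was the member with the most reads. It had 4288 counts in the FDM eye and 3562 in the control eye of mouse 1, 4927 and 4588 in those of mouse 3, and 8561 in Control 2. Control 2, at 150 CPM, stood above the other 4 libraries, which lay between 89.2 and 102 CPM. The FDM eyes had 101 ± 2.50 CPM (SD, n = 2) and the control eyes 112 ± 33.3 CPM (SD, n = 3). The log2 fold change was -0.15 (SE 0.21, edgeR unadjusted p = 0.491, adjusted p = 1.0), and it was 0.13 without Control 2. RPE, which is known to express Cp, contributed most marker RNA to Control 2 and Control 3, while Cp in Control 3 was 96.6 CPM, within the range of the libraries low in RPE markers. The part of RPE RNA in the level of Cp was not tested.

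**Figure D3:**
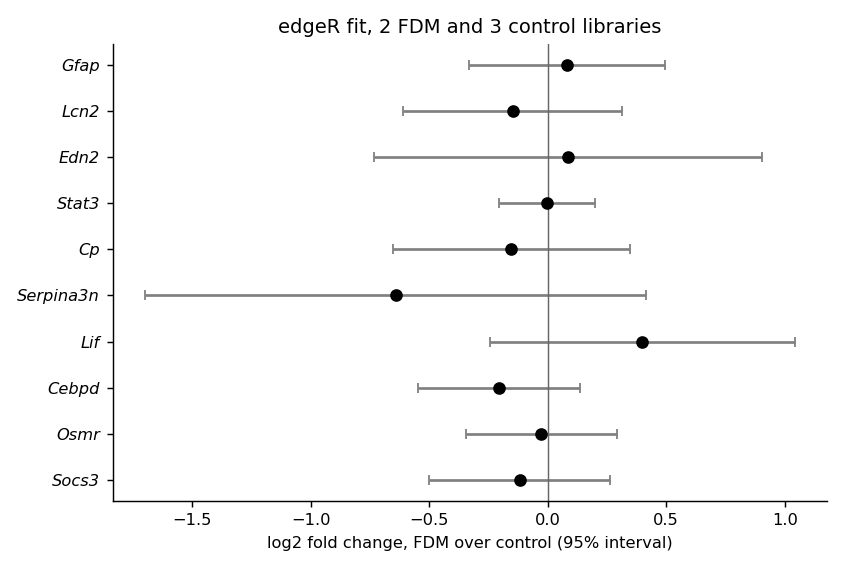
Log2 fold change of FDM over control eyes (points) with its 95% interval (bars) from the edgeR fit of 2 FDM and 3 control libraries. All 10 intervals include 0, and that of Stat3 is the narrowest and that of Serpina3n the widest.

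The eyes of a mouse came from the same animal, so each FDM library was also set against the control library of its mouse. These differences rest on 1 library per eye and were not tested, and the errors given are counting errors only. The eyes of mouse 3 also differed in RNA of neighboring tissues. RPE markers summed to 72.6 CPM in FDM 3 and 285 in Control 3, lens markers to 1963 and 10.5, and muscle markers to 10.7 and 59.5. In FDM 1 and Control 1 the sums were 83.0 and 87.6 for RPE, 2.58 and 2.48 for lens, and 9.55 and 9.24 for muscle. The part of these tissues in the differences was not tested. In mouse 1, 3 members were higher in the FDM eye and 7 lower, with a median difference of -0.17 in log2 CPM against -0.02 over all genes. In mouse 3, 6 were higher and 4 lower, with a median of 0.07 against -0.0012 over all genes. The sign was opposite in the 2 mice for 5 members, and 44.9% of the genes tested had opposite signs.

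Edn2 differed most between the mice. It was -0.83 ± 0.11 in mouse 1 and 0.87 ± 0.11 in mouse 3 (log2 CPM, FDM minus control eye, counting standard error). Gfap changed sign in the same way, with -0.27 ± 0.06 in mouse 1 and 0.28 ± 0.06 in mouse 3, as did Lcn2, with -0.34 ± 0.18 and 0.20 ± 0.16. Stat3 had the same signs at -0.06 ± 0.03 and 0.06 ± 0.03. Osmr ran the other way, with 0.16 ± 0.12 in mouse 1 and -0.05 ± 0.11 in mouse 3. Against Control 2, FDM 3 was at 0.67 for Edn2, 0.30 for Gfap, -0.10 for Lcn2 and -0.02 for Stat3.

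The FDM eye was higher in both mice for Cp and Lif and lower in both for Serpina3n, Cebpd and Socs3. Cp was 0.15 ± 0.03 in mouse 1 and 0.08 ± 0.03 in mouse 3. Lif was 0.29 ± 0.33 and 0.70 ± 0.37, and on the authors' scale it fell below 0 in mouse 3. Serpina3n was -0.37 ± 0.13 and -1.09 ± 0.09, and Cebpd was -0.47 ± 0.11 and -0.13 ± 0.10. Socs3 lay within its counting error of 0 in both mice. On the authors' scale Cp was -0.11 in mouse 3 and Socs3 0.20 in mouse 1, so that among these 5 members Serpina3n and Cebpd kept one sign in both mice on both scales. Set against Control 2, as the label numbers would pair it, FDM 3 differed by -0.55 for Cp, 0.22 for Serpina3n and 0.12 for Cebpd. A difference of at least 1.5-fold was reached by 1 member in mouse 1, Edn2, and by 3 in mouse 3, Edn2, Lif and Serpina3n, where 6.09% and 6.62% of the genes did so. Control libraries of different mice differed by this much for 7.55% (Control 2 and Control 3), 8.28% (Control 1 and Control 3) and 12.1% (Control 1 and Control 2) of the genes.

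**Figure D4:**
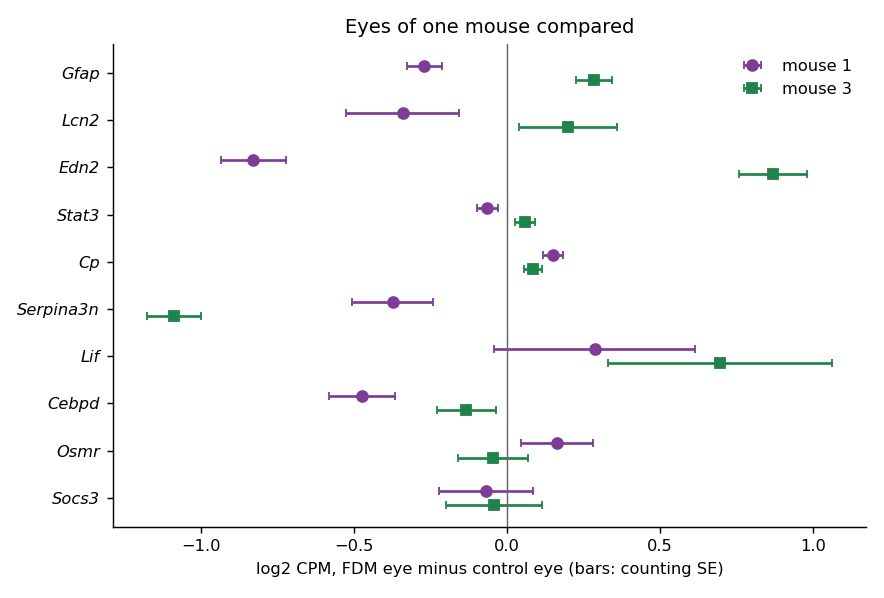
Difference in log2 CPM between the FDM eye and the control eye of one mouse, for mouse 1 (purple circles) and mouse 3 (green squares), with counting standard errors as bars. Edn2, Gfap, Lcn2 and Stat3 lie left of 0 in mouse 1 and right of 0 in mouse 3, and Serpina3n lies left of 0 in both, at -0.37 and -1.09.

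Across the members, Control 1 was the highest library for Gfap, Edn2, Stat3 and Cebpd, and Control 2 for Lcn2, Cp, Osmr and Socs3. Control 3 was highest for Serpina3n and FDM 1 for Lif. Control 1 and Control 2 were also the libraries most often highest among all genes tested, for 27.7% and 31.4% of them. The median ratio of the highest to the lowest control was 1.37 for the members and 1.22 for genes with counts in every control.

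The wider signaling chain was examined in 11 lists of 108 genes, the Serpina3 cluster among them, of which 89 were tested. At the unadjusted threshold 0 were higher and 2 lower in FDM eyes, and 0 passed adjustment, against 0.453% higher and 1.16% lower over all genes tested. With the mouse as a block the counts were 3 higher and 12 lower, where the fit called 3.57% and 3.67% of all genes tested. The median log2 fold change of the 89 genes was -0.05 without the block. In bulk RNA a lower level cannot be told apart from fewer cells of the type that expresses the gene.

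For the gp130 system, 0 of 5 cytokines tested and 0 of 5 receptors tested passed. Clcf1, a ligand of the CNTF receptor, had a log2 fold change of 0.08 (unadjusted p = 0.587). The shared receptor subunit Il6st, which encodes gp130, stood at 10.04 CPM per kb with a log2 fold change of -0.04 (unadjusted p = 0.650), and Lifr, its partner for LIF, at 6.40 CPM per kb with -0.07 (unadjusted p = 0.594). Il6ra, the subunit for interleukin 6, had a log2 fold change of 0.14 (unadjusted p = 0.465). Il6st and Lifr were thus read at higher levels per length than Lif, which had 0.186 CPM per kb.

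Of the Janus kinases, other STATs and Ptpn11, 0 of 10 tested passed, with log2 fold changes of 0.01 for Jak1 (unadjusted p = 0.943), 0.12 for Jak3 (unadjusted p = 0.373) and -0.21 for Stat6 (unadjusted p = 0.0830). Among 11 feedback and target genes of STAT3, 0 passed. Socs1, a further inhibitor of this chain, had 28, 38, 19, 33 and 17 counts in FDM 1, FDM 3, Control 1, Control 2 and Control 3, and a log2 fold change of 0.60 (unadjusted p = 0.0786). Junb, an immediate early transcription factor, had 716, 803, 958, 912 and 1170 counts in that order, and its log2 fold change was -0.37 (unadjusted p = 0.0811). In CPM Junb was lowest in Control 2, at 16.0, with 16.5 in FDM 1 and 16.7 in FDM 3. Control 1 and Control 3 had 24.0 and 24.6 CPM. In the blocked fit, where Control 2 has no partner, Junb was at -0.55 (adjusted p = 0.00661 from edgeR).

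In the lists of reactive astrocyte genes from injury models, 0 of 7 general, 0 of 11 A1 and 0 of 9 A2 genes tested passed. Among the general genes, Vim had a log2 fold change of 0.02 (unadjusted p = 0.891), Cd44, a hyaluronan receptor, 0.18 (unadjusted p = 0.151) and S1pr3, a sphingosine phosphate receptor, -0.09 (unadjusted p = 0.384). The A1 genes with the smallest p were Serping1, the inhibitor of the first complement component, at -0.50 (unadjusted p = 0.0541) and Fbln5, an elastic fiber gene, at -0.73 (unadjusted p = 0.121). The A2 genes with the smallest p were Ptx3, a pentraxin, at -0.49 (unadjusted p = 0.106) and B3gnt5, a glycosyltransferase, at 0.42 (unadjusted p = 0.115). None of these 4 values passed the threshold in either direction. Serping1 had 11.5 and 8.49 CPM in Control 2 and Control 3, against 5.65 to 7.22 CPM in the other libraries. Fbln5 and Ptx3 were also highest in Control 2 and Control 3, the libraries high in RPE markers, whose part was not tested.

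In the endothelin system, 0 of 6 further genes passed. Edn3, another endothelin, had 20, 43, 23, 103 and 73 counts in FDM 1, FDM 3, Control 1, Control 2 and Control 3 and a log2 fold change of -0.95 (unadjusted p = 0.0974). The receptor gene Ednrb had 239, 295, 249, 620 and 325 counts and -0.46 (unadjusted p = 0.0989). Edn3 was high in Control 2 and Control 3, the libraries high in RPE markers, and Ednrb stood apart in Control 2. The part of RPE RNA in these values was not tested.

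Of 15 acute phase and iron handling genes tested, 0 were higher and 2 lower. A2m, the protease inhibitor alpha-2-macroglobulin, fell by 0.55 on the log2 scale (edgeR unadjusted p = 0.0287, adjusted p = 1.0). It had 290 counts in the FDM eye and 317 in the control eye of mouse 1, 375 and 599 in those of mouse 3, and 635 in Control 2. The metallothionein gene Mt2 fell by 0.30 (edgeR unadjusted p = 0.0311, adjusted p = 1.0), with 619, 659, 616, 991 and 898 counts in the same order. For both genes the FDM libraries lay below every control in CPM, with Control 1 nearest to them. RPE markers were low in these same 3 libraries, and their part was not tested.

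Of 9 genes of the retinal damage response tested, 0 passed. Bdnf, a neurotrophin gene, had a log2 fold change of -0.57 (unadjusted p = 0.0529) and Ddit3, a gene of the unfolded protein response, -0.13 (unadjusted p = 0.142). Bdnf had 6.97, 9.63 and 8.79 CPM in FDM 1, FDM 3 and Control 1, against 15.4 and 12.7 in Control 2 and Control 3. The latter were the libraries high in RPE markers, whose part was not tested.

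With the mouse as a block several of these calls differed. At the unadjusted threshold that fit called 1 gene higher and 1 lower among the STAT3 feedback and target genes, 1 lower among the general and 1 lower among the A1 reactive genes, 1 higher and 1 lower among the A2 genes, 1 lower in the endothelin system, 5 lower among acute phase and iron handling genes, and 1 higher and 2 lower in the damage response. Of the genes named here, Socs1 (0.80, unadjusted p = 0.0466) and B3gnt5 (0.59, unadjusted p = 0.0316) were then called higher. Bdnf (-0.37, unadjusted p = 0.00259), Serping1 (-0.29, unadjusted p = 0.0260), S1pr3 (-0.15, unadjusted p = 0.0313) and Edn3 (-0.61, unadjusted p = 0.0483) were called lower, as were Junb, A2m and Mt2. Of these, Bdnf, Serping1, Edn3, A2m and Mt2 were highest in Control 2 and Control 3, the libraries high in RPE markers. The part of RPE RNA was not tested.

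Few markers of the cells that carry the response passed the test. Of 12 Müller cell markers 0 were higher and 1 was lower. Glul had a log2 fold change of 0.0081 (unadjusted p = 0.928), Rlbp1, the retinaldehyde-binding protein, -0.05 (unadjusted p = 0.539), and the glutamate transporter Slc1a3 0.0061 (unadjusted p = 0.947). The exception was Car14, a membrane carbonic anhydrase, which fell by 0.27 (edgeR unadjusted p = 0.0219, adjusted p = 1.0). Car14 had 76.9 CPM in FDM 1, 72.8 in FDM 3 and 83.4 in Control 1, against 96.0 and 91.5 in Control 2 and Control 3, the libraries high in RPE markers, whose part was not tested. Apoe, the lipid carrier, had -0.25 (unadjusted p = 0.113). It showed the same split, with 570 and 577 CPM in Control 2 and Control 3 and 421 to 463 CPM in the other libraries. Of 6 astrocyte markers 0 passed, among them Gja1, a connexin, at -1.52 (unadjusted p = 0.0520) and Aldh1l1 at -0.14 (unadjusted p = 0.211). Gja1 had 207 counts in the FDM eye and 223 in the control eye of mouse 1, 457 and 1455 in those of mouse 3, and 1441 in Control 2, so that Gja1 was high in Control 2 and Control 3, the libraries high in RPE markers, where Gfap was lowest, and the part of RPE RNA was not tested. Of 9 microglia markers 0 passed, with -0.30 for the receptor gene Csf1r (unadjusted p = 0.0524) and -0.21 for C1qb (unadjusted p = 0.228). Of 7 photoreceptor and 5 endothelial markers 0 passed, with -0.14 for Sag (unadjusted p = 0.157), -0.15 for Opn1sw (unadjusted p = 0.330), 0.09 for Kdr (unadjusted p = 0.485) and 0.08 for Pecam1 (unadjusted p = 0.553). With the mouse as a block, 1 Müller cell marker was called higher and 2 lower, and 1 astrocyte, 1 microglia and 2 photoreceptor markers were called lower. That fit called 3.57% of all genes tested higher and 3.67% lower. Among the markers called lower were Gja1 at -1.15 (unadjusted p = 0.00139), Csf1r at -0.29 (unadjusted p = 0.0332) and Sag at -0.17 (unadjusted p = 0.0203).

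RPE, lens and muscle markers had median log2 fold changes of -1.55, 6.42 and -1.0 over the genes tested. Of 12 RPE markers 7 were lower in FDM eyes, including Kcnj13 at -2.63 (unadjusted p = 0.00409) and Rgr at -1.58 (unadjusted p = 0.00830). All 7 lens markers tested were higher, a result of FDM 3 alone, as for Cryaa with 5 counts in FDM 1 and 47021 in FDM 3. Cryba1 had 24 and 16057 counts and Mip 29 and 1469 counts in these libraries. Of 4 muscle and 5 blood markers tested 0 passed, with -4.38 for Myl1 (unadjusted p = 0.0514), -1.27 for Acta1 (unadjusted p = 0.189), -0.31 for Hbb-bt (unadjusted p = 0.0640) and -0.23 for Hba-a2 (unadjusted p = 0.0929). With the mouse as a block, 9 RPE, 4 muscle and 1 blood marker were called lower and 7 lens markers higher. That fit called 3.67% of all genes tested lower and 3.57% higher. The muscle markers summed to 59.5 CPM in Control 3 and to between 9.24 and 10.7 CPM elsewhere. The RPE markers summed to 87.6 CPM in Control 1, near the 83.0 CPM of FDM 1 and 72.6 CPM of FDM 3.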

How the data were processed

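RNA from 5 mouse retinas (2 FDM, 3 control) was sequenced by the authors from poly-A enriched TruSeq libraries. Per the labels, reads were processed with Trimmomatic 0.39, Salmon 1.10.1 and R 4.3.1. The authors summed the transcripts to genes and deposited estimated counts as whole numbers, and besides these a signal, normalized counts from DESeq2, made with a factor for each gene and library. Groups came from the sample labels and mouse numbers from the study.

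From the estimated counts, the 17432 genes that exceeded 10 counts in 2 libraries or more were fitted with edgeR 4.0.16 in R 4.3.3 (TMM, quasi-likelihood test, no covariate). An identifier present in 2 rows with 0 counts was used once. All p-values in the text are from this fit unless another is named, and adjusted values are Benjamini-Hochberg over all genes tested. Every gene named outside the members had an adjusted p of 1.0 in it. The standard error of a value is its log2 fold change over the square root of F. As alternatives, DESeq2 1.42.0 was run on the counts and limma 3.58.1 on the log2 normalized counts (pseudocount 1 or 0.1), and edgeR was rerun with other factors, other filters, a mouse block and single libraries omitted. The script was tested on simulated counts. The authors' normalization factors were recovered as estimated count over normalized count. Exon lengths, coordinates and identifiers follow GENCODE M21 on GRCm38, the build named in the labels.

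The members and lists were chosen with earlier results of these data known. Named were all members, the 2 tested genes with the smallest p in each list, and Vim, Il6st, Lifr, Jak1, Glul, Rlbp1, Slc1a3 and Cryaa, except that some results are not reported here. Egr1 was named after its values were seen. Same-mouse eyes were paired because they came from one animal. Their deviations from the group means correlated, across genes, at 0.247 in mouse 1 and 0.0998 in mouse 3, while FDM 3 and Control 2, which share a number in the labels, correlated at 0.163. With 2 FDM libraries their deviations mirror each other, so these values do not decide the pairing. Counting errors assume independent reads, so that they are lower limits of the error.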

Additional observations from a re-analysis of the deposited data

How the results depend on the processing

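No member of the 10 passed an adjusted p of 0.05 in edgeR, DESeq2 or limma under any of the alternatives run. At the unadjusted threshold 0 members were called, except that 2 were called with the mouse as a block (Serpina3n and Cebpd), and that leaving out each library gave from 0 to 2, the 2 being Gfap and Edn2 without Control 1. Over all genes, the count at the unadjusted threshold was 281 in the fit reported, 172 in DESeq2, 498 without the count filter, 1261 with the mouse as a block and 439 with the block set by the label numbers. Leaving out single libraries gave 146 to 946 genes, with 170 without FDM 1, 535 without Control 2, 946 without Control 1 and 146 without Control 3. The adjusted count of 0 became 3 in DESeq2, 54 with the mouse as a block, 128 with the block by label numbers, and 0 to 16 with libraries left out (16 without FDM 1, 12 without Control 1).

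Of 150 values for the members' fold changes under the alternatives, 124 kept their direction and side of the threshold, 4 newly passed it and 22 changed sign, none of these with an unadjusted p under 0.05 from edgeR, DESeq2 or limma. With the authors' factors Lif was at -0.24, -0.24 and -0.27 (limma with pseudocount 1, limma with 0.1, edgeR offsets). Stat3 moved to 0.0027 in DESeq2, 0.0026 with its size factors and 0.0068 with library totals only. With the mouse as a block Cp was 0.12 and Osmr 0.058, and with the block by label numbers Edn2 was -0.076. Without Control 2, which adds nothing to the difference in the mouse-blocked fit, Cp was 0.13 and Osmr 0.072. Causes of the sign changes were not tested. With each library left out, Gfap ran from -0.0071 to 0.29, Lcn2 from -0.42 to 0.079, Edn2 from -0.20 to 0.53, Stat3 from -0.039 to 0.039, Cp from -0.29 to 0.13, Osmr from -0.13 to 0.072, Socs3 from -0.25 to 0.0017, Serpina3n from -1.05 to -0.03, Lif from 0.23 to 0.54 and Cebpd from -0.36 to -0.07. Where 1 FDM library remained, it was assumed to vary like the controls. On the authors' normalized counts 0 members had both FDM libraries above every control. With 2 FDM libraries, the intervals of Serpina3n, Edn2, Lif, Cp and Lcn2 do not limit a change to under 1.5-fold.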

Other observations

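Of the 89 further pathway genes tested, 15 had an unadjusted p under 0.05 with the mouse as a block, 3 higher and 12 lower, against 3.57% and 3.67% of all genes tested, and 2 passed adjustment. Besides Junb, this was Egr1, an immediate early transcription factor gene. Egr1 had 3220 counts in the FDM eye and 4753 in the control eye of mouse 1, 1912 and 4173 in those of mouse 3, and 1682 in Control 2, so that the FDM eye was lower than the control eye in both mice while the unpaired Control 2 was the lowest library in counts. The log2 fold change of Egr1 was -0.91 with the block (adjusted p = 0.00570 from edgeR) and -0.47 without it (edgeR unadjusted p = 0.407, adjusted p = 1.0). In the blocked fit Control 2 has no partner and adds nothing to the difference. By the label numbers FDM 3 would pair with Control 2. In that pair FDM 3 was higher for Egr1 (39.8 against 29.5 CPM) and for Junb (16.7 against 16.0 CPM). The sign of the difference for FDM 3 thus depended on the pairing used.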
